A study of Mus musculus with 6 samples.

Results

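The transcripts followed in Melan-a melanocytes with lowered Dicer were those of 6 glycosyltransferase genes, namely the GalNAc-transferases Galnt3, Galnt5 and Galnt13 and the beta-4 galactosyltransferases B4galt1, B4galt2 and B4galt3. They were chosen by name, and a value was taken where a transcript cluster of the array carried that symbol alone. This held for 5 of the 6 members, out of 7486 named genes in all, and B4galt2 was not analysed here. Each of the 5 members was read by 1 transcript cluster. Melan-a is an immortalised line of pigmented melanocytes from C57BL/6 mice, labelled female, grown here with serum and the phorbol ester TPA at 200 nM. One group received an siRNA against Dicer (siDicer) and the other a control siRNA (siScr), 50 pmol per well in each case, and each group had 3 samples. Replicates 1, 2 and 3 came from cell passages 47, 54 and 56 in both groups. The labels give 48 h after transfection in the titles, but by the treatment protocol the medium was replaced at 6 h and the cells were lysed 24 h later. As all samples come from 1 line, the p-values measure the spread between cultures of that line.

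Total RNA was measured on Affymetrix Clariom D mouse arrays, and each deposited value was read as a log2 signal, a scale inferred from the range of values. Array medians lay between 4.63 and 4.68. Dicer1, the targeted transcript, was not analysed here, so the group labels have no check from it. Of 13 melanocyte markers 3 had a value, and Tyrp1 averaged 12.86, Slc24a5 10.85 and Pax3 10.60 in siScr cells. The leukocyte gene Ptprc averaged 2.84 in each group and was the dimmest leukocyte marker with a value. The brightest markers of the other cell types averaged more in siScr cells, with the leukocyte gene Fcer1g at 5.13, the keratinocyte gene Flg at 6.92 and the fibroblast gene Col3a1 at 6.34. The summed log2 signal of the 3 melanocyte markers ran from 33.31 to 34.31 in siDicer and from 33.72 to 34.83 in siScr, and the sums of the 6 keratinocyte, 3 fibroblast and 5 leukocyte markers also overlapped between the groups. Fewer cells that express a gene and less RNA of that gene per cell cannot be told apart in such bulk samples.

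GalNAc-transferases start mucin-type O-glycosylation in the Golgi by placing N-acetylgalactosamine on serine or threonine of a passing protein, and the many isoenzymes differ in the peptides they prefer. Other enzymes then extend that first sugar with galactose and N-acetylglucosamine and cap it with sialic acid. Beta-4 galactosyltransferases add galactose to N-acetylglucosamine at the ends of N-glycans and O-glycans, or to glucose on ceramide, and so prepare the ends that sialyltransferases cap. In pigment cells these modifications are carried by adhesion receptors and by melanosomal glycoproteins.

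The regions before the transcription starts of B4galt1 and of B4galt5, a beta-4 galactosyltransferase outside the listed members, are shown with stretches of Galnt3, because Galnt3 and B4galt5 were the galactosamine and galactose transferases with the largest differences and B4galt1 was not called. The sequences are from RefSeq (GRCm38.p6), whose table held all 6 members, and are written 5′ to 3′ on the gene's strand. Capitals mark the GC box GGGCGG or its reverse complement CCGCCC in B4galt1 and B4galt5, and the E-box CAGGTG or its reverse complement CACCTG in Galnt3. The Galnt3 stretches hold 30 bases each and are numbered by the first base of the E-box, counted from the start that the table gives, which lies 263 bases inside the outermost RefSeq start of the gene.
Galnt3 at -170, chr2:66124946-66124975, minus strand: ggctctgggtacCAGGTGgccgcggcgcgg
Galnt3 at -57, chr2:66124833-66124862, minus strand: cggcccgcggctCACCTGgagcgctcaggt
Galnt3 at 40, chr2:66124744-66124773, minus strand: gacgtcgccggcgggagctCACCTGggaga
B4galt1, chr4:40853985-40854234, minus strand: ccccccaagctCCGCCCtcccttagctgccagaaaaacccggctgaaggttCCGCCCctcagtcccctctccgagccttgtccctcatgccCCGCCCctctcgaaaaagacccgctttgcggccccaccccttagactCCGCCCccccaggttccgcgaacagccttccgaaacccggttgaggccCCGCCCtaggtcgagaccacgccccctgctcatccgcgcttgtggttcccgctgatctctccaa
B4galt5, chr2:167349179-167349428, minus strand: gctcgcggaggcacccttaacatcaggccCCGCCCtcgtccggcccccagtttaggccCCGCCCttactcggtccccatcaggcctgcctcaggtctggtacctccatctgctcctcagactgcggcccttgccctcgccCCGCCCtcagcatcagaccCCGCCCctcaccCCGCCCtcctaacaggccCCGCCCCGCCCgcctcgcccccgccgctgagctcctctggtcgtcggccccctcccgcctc

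Over the full 300 bases of the table (250 before and 50 after the start), on both strands, CAGGTG occurred 3 times in Galnt3, once in Galnt5 and in none of Galnt13, B4galt1, B4galt2, B4galt3 and B4galt5. Of 32851 mouse promoters of that length, 20.2% held the motif at least once and 0.365% held it 3 or more times. CAGGTG was among several motifs counted, and these shares take no account of that. Another E-box, CATGTG, had 1 match each in B4galt3 and B4galt5 and none in the other members. GC boxes numbered 5 in B4galt1, 7 in B4galt5 (a pair of them overlapping), 3 in Galnt3 and 2 each in B4galt2 (overlapping), B4galt3 and Galnt13. Galnt5 had none. Of all promoters 35.7% held at least 1 GC box and 10.7% held 3 or more. CpG dinucleotides numbered 41 in Galnt3, 36 in B4galt2, 31 in B4galt5 and 28 in Galnt13. They numbered 26 in B4galt1, 19 in B4galt3 and 5 in Galnt5, against a median of 7 over all promoters. No member had the TATA box TATAAA. These letters are a description of the windows and were not tested against the array values.

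Galnt3, known for protecting the phosphate hormone FGF23 from cleavage by glycosylating it, had the largest difference of the tested members. Its log2 signal was 7.74, 7.80 and 7.84 in siDicer replicates 1, 2 and 3 and 7.20, 7.29 and 7.44 in siScr replicates 1, 2 and 3. All siDicer arrays lay above all siScr arrays, with a gap of 0.30 between the lowest siDicer and the highest siScr value. The means ± SD (n = 3) were 7.80 ± 0.050 for siDicer against 7.31 ± 0.12 for siScr. The difference was 0.49 ± 0.079 (SE), or 1.40-fold. The 95% interval of the difference ran from 0.30 to 0.67. Without passage in the fit it did not pass the threshold of 0.05 (limma over 5240 tested genes, adjusted p = 0.125).

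With passage as a block, which compares each siDicer array with the siScr array of its own passage, Galnt3 rose in limma's fit (adjusted p = 0.0236, 95% interval 0.34 to 0.63). In that fit 1.20% of the tested genes were called higher in siDicer, and 1 of the 3 tested members was among them. The difference was 0.54 at passage 47, 0.52 at passage 54 and 0.40 at passage 56. In both groups the signal was lowest at passage 47 and highest at passage 56. The call did not hold without passage 47 (adjusted p = 0.115) or without passage 54 (adjusted p = 0.0554), and it held without passage 56 (blocked limma fit, adjusted p = 0.0127). Among the 5240 tested genes Galnt3 ranked 9th by p without the block and 46th by the size of its difference, and 0.515% of them had a rise at least as large.

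**Figure D1:**
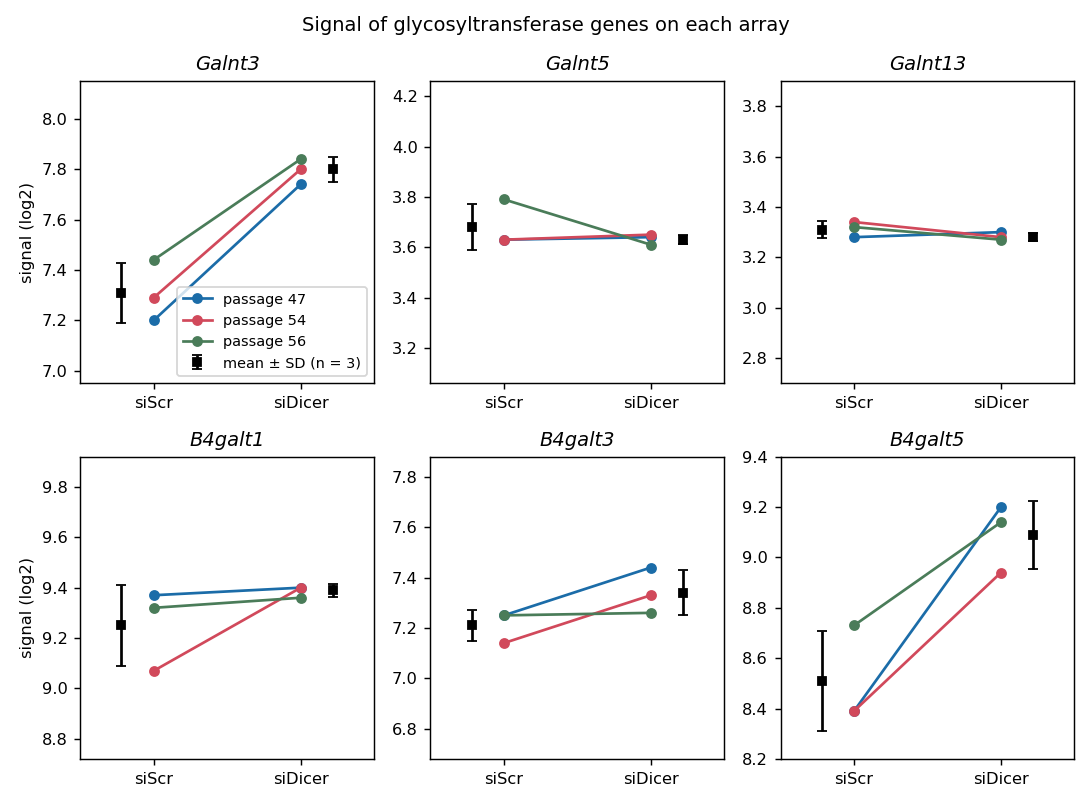
Log2 signal of the 5 members with a value and of B4galt5 on each array; each coloured line joins the siScr and siDicer array of 1 passage, and black squares with bars are means ± SD (n = 3). Every panel spans the same height of 1.2 log2 units. The lines of Galnt3 and B4galt5 rise at all 3 passages, and those of Galnt13 stay nearly flat. Those of Galnt5 are nearly flat at passages 47 and 54, and the difference at passage 56 is -0.17. In B4galt1 only the siScr array of passage 54 lies low.

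Galnt5 and Galnt13 were dim. Their signals lay under log2 4.16, the 30th percentile of gene means below which genes were left out of the test. Galnt5, another initiating isoenzyme, was at 3.64, 3.65 and 3.61 in siDicer and at 3.63, 3.63 and 3.79 in siScr. Galnt13, an isoenzyme known from neurons, was at 3.30, 3.28 and 3.27 in siDicer and at 3.28, 3.34 and 3.32 in siScr. The groups overlapped for each gene. With dim genes kept in, the difference was -0.049 for Galnt5 (95% interval -0.19 to 0.087) and -0.029 for Galnt13 (-0.14 to 0.080), and neither passed (limma, adjusted p = 0.927 and 0.959). At such signals a change in a transcript that is barely present may not be visible.

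Galnt12, a further GalNAc-transferase that is not a listed member, was tested as well. Its signal was 6.38, 6.42 and 6.40 in siDicer and 6.26, 6.34 and 6.28 in siScr, so that the groups did not overlap, by a margin of 0.036. The difference of 0.11 ± 0.058 (SE) did not pass (limma, adjusted p = 0.684, and 0.465 with passage as a block). Of the 19 GalNAc-transferases listed for mouse, 4 had a value and 2 were tested, Galnt3 and Galnt12, and both of these were higher in siDicer where 45.7% of all tested genes were. Their median of 0.30 was 0.038 when the dim Galnt5 and Galnt13 were counted.

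B4galt1, the enzyme that adds most of the galactose to N-glycans and forms lactose synthase with alpha-lactalbumin in the mammary gland, was at 9.40, 9.40 and 9.36 in siDicer and at 9.37, 9.07 and 9.32 in siScr. The siScr array of passage 54 was the low one, and the groups overlapped. The means were 9.39 ± 0.025 and 9.25 ± 0.16 (SD, n = 3). The difference of 0.13 had a 95% interval of -0.070 to 0.34 and did not pass (limma, adjusted p = 0.739, and 0.521 with passage as a block). It was 0.034 at passage 47, 0.33 at passage 54 and 0.041 at passage 56, and fell to 0.044 without siScr replicate 2.

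B4galt3, which makes N-acetyllactosamine ends like B4galt1, was at 7.44, 7.33 and 7.26 in siDicer and at 7.25, 7.14 and 7.25 in siScr. The lowest siDicer value exceeded the highest siScr value by 0.0064. The means were 7.34 ± 0.090 and 7.21 ± 0.062 (SD, n = 3). The difference of 0.13 had a 95% interval of -0.040 to 0.30 and did not pass (limma, adjusted p = 0.693, and 0.454 with passage as a block). It was 0.19 at passages 47 and 54 and 0.0064 at passage 56. The intervals of B4galt1 and B4galt3 therefore include 0 as well as rises of up to 0.34 and 0.30.

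Of the 3 tested members, all 3 were higher in siDicer at every passage, where 16.2% of all tested genes were, and 2 (Galnt3 and B4galt3) had groups that did not overlap with siDicer above, where 6.77% of the tested genes did. Without the block 0 members passed, as did 0.0191% of the tested genes (1 gene, lower in siDicer). At an unadjusted p of 0.05, 1 member (Galnt3) was past the threshold, as were 8.61% of tested genes in either direction (limma). The difference of B4galt3 was small, and the members were picked with earlier results known.

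B4galt5, a lactosylceramide synthase of the same family, was higher in siDicer at all 3 passages, as were Galnt3 and 16.2% of all tested genes. Within siDicer its signal was highest at passage 47, where that of Galnt3 was lowest. The signal of B4galt5 was 9.20, 8.94 and 9.14 in siDicer and 8.39, 8.39 and 8.73 in siScr, with no overlap. The difference of 0.58 ± 0.12 (SE) did not pass without the block (limma, adjusted p = 0.171), and B4galt5 rose with it (adjusted p = 0.0273). That call did not hold without passage 47 (adjusted p = 0.115) or passage 54 (blocked limma fit, adjusted p = 0.0523).

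**Figure D2:**
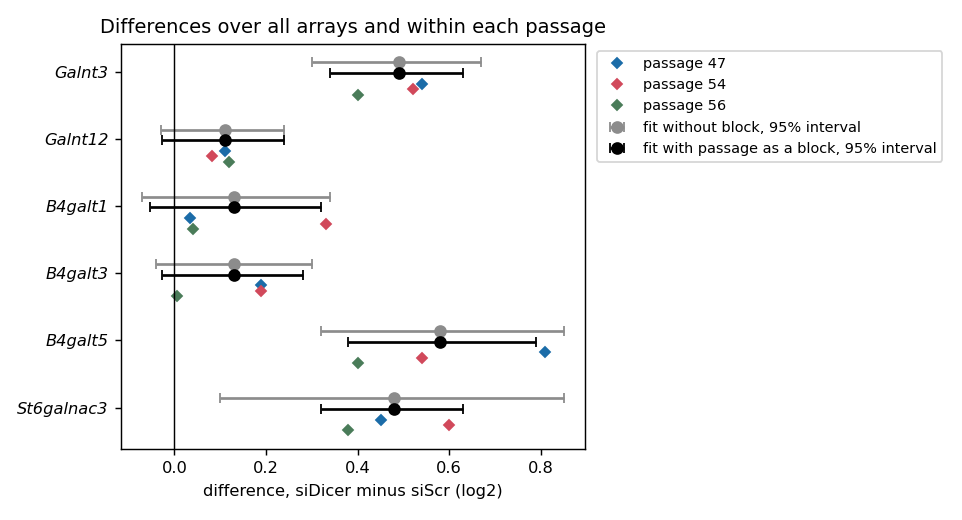
Difference between siDicer and siScr (log2, horizontal axis) for the 3 tested members and for Galnt12, B4galt5 and St6galnac3; circles with bars are fitted differences with 95% intervals, grey without and black with passage as a block, and diamonds are the differences within each passage. The intervals of Galnt3, B4galt5 and St6galnac3 lie above 0 in each fit, and those of Galnt12, B4galt1 and B4galt3 include 0.

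Over the 6 arrays, the log2 values of Galnt3 correlated with those of B4galt5 at 0.95 and of Galnt12 at 0.87, and with B4galt1 and B4galt3 at 0.55 and 0.64. B4galt1 and B4galt3 correlated at 0.79. These correlations share the same 6 arrays and include the difference between the groups, so they only describe the profiles. The 3 genes with the profile most like Galnt3, by Pearson correlation over the 6 arrays, were Tiprl (0.992), Cyp20a1 (0.990) and Blvra (0.989), with differences of 0.28, 0.37 and 0.14. For B4galt1 they were Stk25, Uhmk1 and Coq3 (0.984, 0.982 and 0.980), for B4galt3 Pygo2, Ifnz and Mrps2 (0.972, 0.970 and 0.967). For the dim Galnt5 they were Mrpl41, Prelid3b and Eif5a2 (0.995, 0.983 and 0.957), and for the dim Galnt13 Ifna4, Tctex1d4 and En1 (0.993, 0.988 and 0.975). With so few arrays, a high value alone says little. Of 3369 genes compared, 66 reached 0.9 with Galnt3, 38 with B4galt1 and 69 with B4galt3. Of 3370 compared, 11 did so with the dim Galnt5 and 28 with the dim Galnt13.

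Protein-coding genes next to the members on the chromosome were read for comparison. Beside Galnt3, Ttc21b, a cilium gene, differed by 0.066 (limma, adjusted p = 0.893) and Csrnp3 was dim at 4.04 in siDicer and 4.06 in siScr. Smu1 and Spink4 beside B4galt1 differed by -0.090 and 0.011, and Adamts4 and Ppox beside B4galt3 by 0.11 and 0.052, and none of them passed (limma, adjusted p from 0.756 to 0.989). Gpd2 beside Galnt5 differed by 0.24 and Rprm beside Galnt13 by -0.020 (limma, adjusted p = 0.411 and 0.975). Beside B4galt5, Slc9a8, a sodium and proton exchanger, was higher by 0.33 without passing (limma, adjusted p = 0.234), and rose with passage as a block (adjusted p = 0.0463), while Ptgis on the other side differed by -0.067 (limma, adjusted p = 0.844, and 0.682 with the block).

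**Figure D3:**
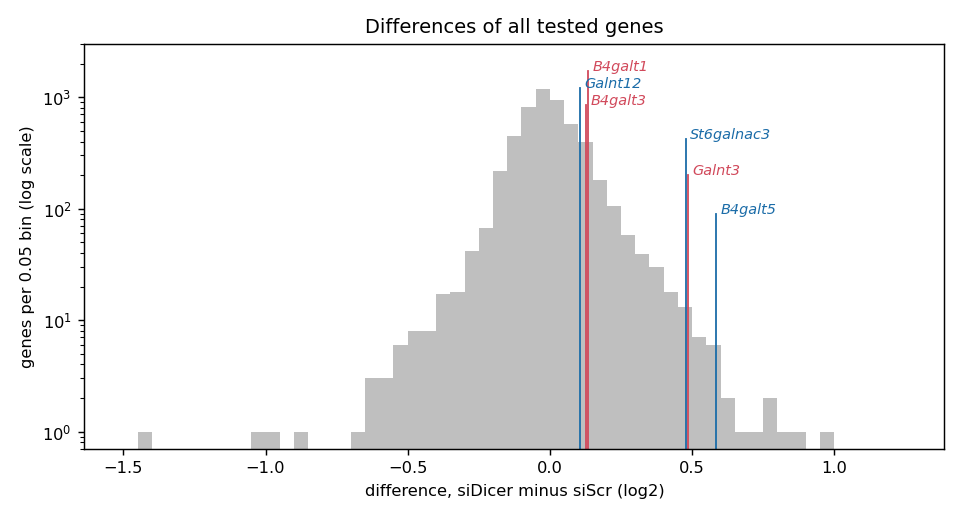
Distribution of the difference between siDicer and siScr (log2, horizontal axis) over the 5240 tested genes, in bins of 0.05 with a logarithmic count axis. Red lines mark the 3 tested members and blue lines Galnt12, B4galt5 and St6galnac3; Galnt3 at 0.49 lies in the upper tail, and B4galt1 and B4galt3 at 0.13 lie on the shoulder of the main peak.

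The other steps of glycan synthesis were described by gene lists, each given with the median difference of its tested members beside the median of -0.0086 over all tested genes. Without the block, 0 members of the 7 lists passed. With passage as a block 3 of the 47 tested list genes passed, Galnt3, B4galt5 and St6galnac3, all higher in siDicer, where 63 of 5240 tested genes (1.20%) were called higher. The lists were chosen with earlier results of these data known, so these shares are a description and not a test of an excess. Of 20 galactosyl- and related transferases 6 had a value and 4 were tested. All 4 were higher, where 45.7% of all tested genes were, with a median of 0.13. That median was 0.088 when the dim B3galt2 and B3galnt1 were counted, which differed by -0.035 and -0.075. The fourth tested gene, B3galt1, which makes beta-3 galactose links, differed by 0.049 and overlapped between the groups.

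St6galnac3, which adds sialic acid to the GalNAc of sialylated O-glycans and glycolipids, was at 7.39, 7.0 and 7.32 in siDicer and at 6.94, 6.40 and 6.94 in siScr. Replicate 2, of passage 54, was the lowest of each group, and the groups did not overlap. The difference was 0.48 ± 0.16 (SE, limma, adjusted p = 0.438), and St6galnac3 rose with passage as a block (adjusted p = 0.0262). That call also did not hold without passage 47 or passage 54 (blocked limma fit, adjusted p = 0.115 and 0.0881). Of 30 sialyl- and fucosyltransferases 5 were tested, 4 higher and 1 lower (5 and 0 after median centring of the arrays), with a median of 0.14, which was 0.018 when the 3 dim members St8sia4, St8sia6 and Fut9 were counted. St3gal3, which caps galactose with sialic acid, differed by 0.25, Pofut1, the O-fucosyltransferase of Notch, by 0.14 and St6galnac5 by 0.028, and none of them passed.

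The N-acetylglucosaminyltransferases of branching and extension gave 1 higher and 3 lower of 4 tested, with a median of -0.061. Mgat5, which makes the beta-6 branch of N-glycans, differed by -0.19 and Mgat4a, which makes a neighbouring branch, by -0.080. Gcnt7 and B3gnt7 differed by -0.042 and 0.051. All 4 overlapped between the groups.

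Of 11 tested genes of nucleotide sugar supply and transport 7 were higher and 4 lower (8 and 3 after median centring), with a median of 0.042. Uap1l1, a homologue of the enzyme that makes UDP-N-acetylglucosamine, differed by -0.36 with no overlap (limma, adjusted p = 0.309, and 0.0708 with passage as a block). Nans, which makes sialic acid, differed by 0.18, and the nucleotide sugar carriers Slc35a3 and Slc35d1 by 0.19 and 0.17, without passing.

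In N-glycan assembly and trimming 8 of 14 tested genes were higher and 6 lower (11 and 3 after median centring, 9 and 5 after quantile normalisation), with a median of 0.094. Alg2, a mannosyltransferase of the lipid-linked precursor, differed by 0.38, and Ddost, a subunit of the oligosaccharyltransferase, and Man1c1, a Golgi mannosidase, by 0.33 each. Dolk, the dolichol kinase, differed by -0.21. None of these passed (limma, adjusted p from 0.226 to 0.380, and from 0.0692 to 0.183 with passage as a block). The groups did not overlap in 8 of the 14 genes, and in 14.7% of all tested genes. Of these 8, 6 were higher in siDicer and 2 lower, where 6.77% of all tested genes had siDicer wholly above. Of proteins that carry O-glycans, 7 were tested, 6 higher and 1 lower, with a median of 0.16. Itgav, an integrin subunit, differed by 0.30, the syndecan Sdc3 by 0.22, Golim4, a Golgi protein, by 0.16 and the mucin Muc1 by -0.14, and none passed.

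**Figure D4:**
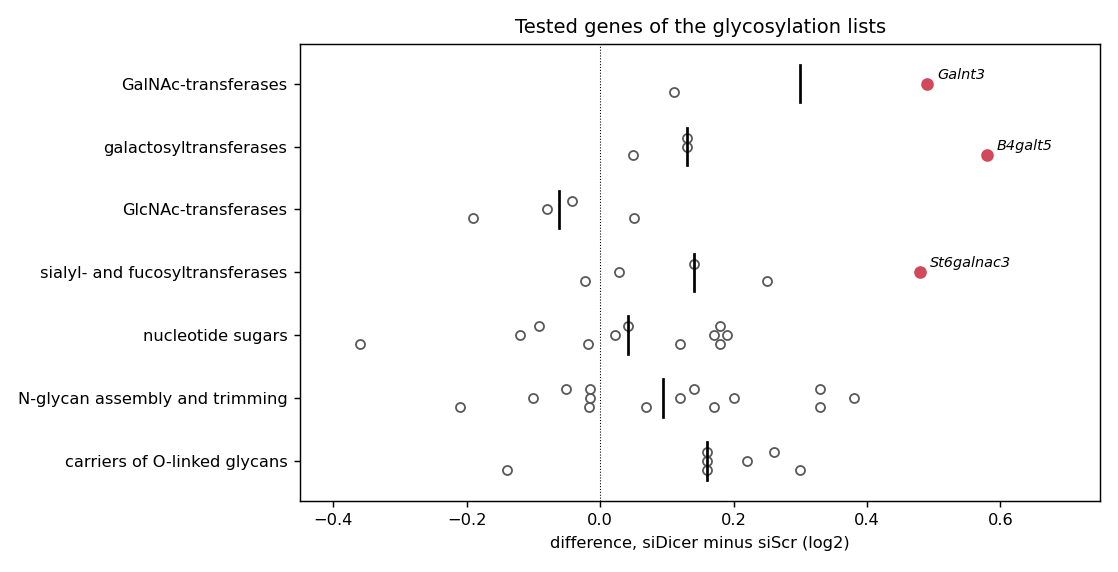
Difference between siDicer and siScr (log2, horizontal axis) for each tested gene of the 7 lists; open circles did not pass, red circles passed with passage as a block, and vertical bars are list medians. GlcNAc-transferases are the enzymes of branching and extension, and the 3 red circles (Galnt3, B4galt5 and St6galnac3) lie between 0.48 and 0.58.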

How the data were processed

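The authors deposited log2 signals per transcript cluster. The submitters' processing notes name Affymetrix Expression Console; how signals were summarised, the annotation release and the build are not stated in the sources used. The log2 scale was inferred from the range of values, 1.70 to 13.70. The table covered chromosomes 1 to 4, and other chromosomes were not used here. Of 16383 clusters, 7530 had 1 gene symbol, 455 several and 8398 none. The first kind was named, with symbols updated through RefSeq, and the brightest cluster per gene was kept. A filter removed genes with a mean below the 30th percentile (log2 4.16), which left 5240. The test was limma 3.58.1 under R 4.3.3 (lmFit, eBayes with trend, two-sided, Benjamini-Hochberg over all tested genes, threshold 0.05). It was also run on simulated data with independent noise. Those data held no passage effect, so they do not show how the block performs here. An exact permutation test of 3 against 3 cannot go below 0.1. Precision is limited by the number of arrays. The labels tie each replicate number to 1 passage, so the numbers pair the samples; deviations from group means correlated at 0.42, 0.63 and 0.08 for passages 47, 54 and 56. Members, lists and tests were chosen with earlier results of these data known. Named were all members, B4galt5, up to 4 genes of each list by smallest p, list genes that passed, and the 3 genes most like each member, leaving out pseudogenes, predicted genes and small RNA genes. Neighbouring genes were named after their values were seen. Alternatives were a passage block, other filters and scalings, array weights, no trend, averaged clusters and left-out samples.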

Additional observations from a re-analysis of the deposited data

How the results depend on the processing

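Over 18 alternatives the difference of Galnt3 stayed positive, between 0.43 and 0.55, and its call changed in 2: with the replicate block of passages (0.49, adjusted p = 0.0236 in limma) and with that replicate block but without passage 56 (0.53, adjusted p = 0.0127). Its adjusted p ran from 0.0127 to 0.427. The fit with both the block and dim genes kept in was not counted among the 18 and also called Galnt3 (limma, adjusted p = 0.0415). B4galt1 (0.038 to 0.19) and B4galt3 (0.080 to 0.19) stayed positive and uncalled in all 18, and Galnt5 and Galnt13 stayed uncalled with dim genes kept in. The number of genes past the threshold was 1, and 98 with the replicate block, 14 with array weights, and 0 to 2 with 1 array left out (0 without siDicer replicate 3, 2 without siScr replicate 2); with the block and without passages 47, 54 or 56 it was 10, 32 and 156. With the replicate block 1 gene passed in each of the lists of GalNAc-transferases, galactosyltransferases, and sialyl- and fucosyltransferases, against 0. With dim genes kept in, the medians of the first and the last of these were 0.038 and 0.018, since more genes were counted. The block changed no other call among the members and lists. Counting aliases of 1 gene as named was chosen after seeing the data. Signal over background could not be measured from these values.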
